A study of Mus musculus with 12 samples.

Results

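The imprinted genes described here are 42 genes of known mouse imprinted domains, chosen by symbol. By the allele that is usually expressed, 27 are paternally expressed and 15 are maternally expressed. All 42 were found by Entrez ID among the 35652 genes of the germline stem cell and fetal tables and the 34896 genes of the postnatal tables. Their RNA was counted in 12 mouse libraries of the male germline, in 6 groups of 2, made by SC3-seq, which sequences 3' ends of cDNA amplified here from 1 ng of RNA. Germline stem cells (GSCs), spermatogonial stem cells kept in culture, all came from a line named Acrosin-EGFP; beta-Actin-EGFP (AAG in short). They were wild type (WT) or Stag3 knockouts of line KO1 or line KO2, each knockout being represented by 1 line, and STAG3 is a subunit of cohesin, the ring complex that folds and holds chromosomes. The germ cells were from testes of genotype Vasa-RFPTg/0 taken on day 16 (E16) or day 17 (E17) of embryonic life or on day 7 after birth (P7). Fluorescent transgenes were thus carried by every group, cultured or in vivo. The sources used here give neither the way the cells were isolated nor the design of the knockouts. Replicates are not stated to be separate cultures or animals, and p-values therefore measure the spread between these samples alone.

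An imprinted gene is transcribed mainly from the copy inherited from 1 parent, because a control region near it was methylated in the egg or in the sperm precursor. Primordial germ cells erase these marks. In the male germline, fetal prospermatogonia then methylate the paternal control regions, those of H19 and Igf2, of Dlk1 and Meg3, of Rasgrf1 and of Zdbf2, while maternally methylated regions stay free of methylation, and spermatogonia keep that pattern. Counts of RNA do not tell the parental copies apart, so "maternally expressed" and "paternally expressed" below name the usual allele in somatic tissue and not an allele measured in these cells. Several members, among them Ube3a, Gnas, Trappc9 and Inpp5f, are imprinted only in some tissues or for some transcripts.

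All levels are given in RPM, the reads of a gene per 1000000 reads counted over genes that are not mitochondrial. Total counts were 1938644 to 4596607 per library, and 3 counts, the limit that a count of 0 allows, corresponded to 0.748 to 1.73 RPM, which covers counting error only. Germ cell markers summed to 3166 to 4136 RPM over the 12 libraries, and the 13 Sertoli cell markers to 350 to 584 RPM, of which Ctsl alone, a protease gene that is not limited to Sertoli cells, made up 258 to 379, while Amh was at 0 in all 12. The E16 libraries were the least alike of any pair of replicates, and the fetal libraries held more RNA of Sertoli, Leydig, peritubular, endothelial, erythroid and fibroblast markers than the GSC libraries, as given with the results they touch. Stag3 RNA was still counted in both knockout lines, its mean RPM being 403 in WT, 299.5 in KO1 and 145 in KO2, but 3' tags test a knockout only where they fall in the altered part. In bulk samples, fewer cells of a type and less RNA per cell cannot be told apart.

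To show the kind of start site these genes have, the RefSeq promoter windows of 300 bases (250 before to 50 after the start, GRCm38.p6) were searched for TGCCGC, the core recognised by ZFP57, the zinc finger protein that binds methylated imprint control regions. Windows were found for 33 members, and none was taken for Impact, Cdkn1c, H19, Nespas, Peg10, Peg13, Rtl1, Sgce or Trappc9. Counting either strand, 11 of the 33 (33.3%) held the motif in at least 1 window, 8 of 21 paternally expressed genes and 3 of 12 maternally expressed ones, against 13.05% of the 27025 genes with a window. The motif holds a CG, and the members' windows had more CG and were more numerous per gene: the median gene had 15 CG among the members and 8 among all genes, and the 33 members had 50 windows against 32851 for the 27025 genes. By window, 12 of 50 (24%) held the motif, against 11.6% of all windows. The part of CG content and window number in the contrast was not tested. Snrpn and Snurf share a window and count as 2 of the 11. A match is a description of the letters and not a bound site. Below is 1 window for each of 5 members on which the results turn, Grb10 and Meg3 (high in fetal germ cells), Plagl1 and Mest (lower at P7 than at E17) and Phlda2 (lower in both knockout lines). TGCCGC, or GCGGCA where it lies on the other strand, is in capitals.
Grb10, chr11:12037371-12037670, minus strand: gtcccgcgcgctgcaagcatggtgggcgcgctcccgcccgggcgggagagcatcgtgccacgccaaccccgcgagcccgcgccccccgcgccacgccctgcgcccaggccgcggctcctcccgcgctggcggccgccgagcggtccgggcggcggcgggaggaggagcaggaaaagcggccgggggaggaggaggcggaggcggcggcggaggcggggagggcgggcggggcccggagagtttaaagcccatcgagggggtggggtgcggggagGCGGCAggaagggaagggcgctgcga
Meg3, chr12:109540746-109541045, plus strand: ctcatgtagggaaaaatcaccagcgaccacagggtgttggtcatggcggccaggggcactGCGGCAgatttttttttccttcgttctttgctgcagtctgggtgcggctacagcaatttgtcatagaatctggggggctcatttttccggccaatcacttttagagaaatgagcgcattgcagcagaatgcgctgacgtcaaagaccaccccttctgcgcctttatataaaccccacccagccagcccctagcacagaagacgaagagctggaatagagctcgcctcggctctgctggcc
Plagl1, chr10:13090582-13090881, plus strand: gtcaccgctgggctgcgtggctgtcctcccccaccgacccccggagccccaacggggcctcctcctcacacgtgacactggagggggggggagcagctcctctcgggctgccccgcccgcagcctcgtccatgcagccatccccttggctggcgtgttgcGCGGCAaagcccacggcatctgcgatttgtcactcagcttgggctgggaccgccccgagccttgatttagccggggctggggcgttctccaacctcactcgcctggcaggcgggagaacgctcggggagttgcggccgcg
Mest, chr6:30737800-30738099, plus strand: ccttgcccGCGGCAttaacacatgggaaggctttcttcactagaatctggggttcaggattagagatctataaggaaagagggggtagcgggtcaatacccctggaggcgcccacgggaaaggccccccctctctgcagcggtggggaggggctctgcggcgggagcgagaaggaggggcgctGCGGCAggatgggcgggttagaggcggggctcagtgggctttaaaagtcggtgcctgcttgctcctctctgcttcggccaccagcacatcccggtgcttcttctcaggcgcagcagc
Phlda2, chr7:143502475-143502774, minus strand: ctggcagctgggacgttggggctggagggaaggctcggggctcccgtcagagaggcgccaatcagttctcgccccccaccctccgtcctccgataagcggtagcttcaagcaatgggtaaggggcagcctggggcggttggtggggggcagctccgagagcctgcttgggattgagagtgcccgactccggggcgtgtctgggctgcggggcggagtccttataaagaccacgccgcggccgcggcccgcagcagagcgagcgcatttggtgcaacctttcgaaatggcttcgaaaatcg
The printed windows of Grb10, Meg3 and Plagl1 hold 1 match each and that of Mest 2, and that of Phlda2 holds none. Where a gene had several windows, one with a match was chosen for printing. Grb10 (from 12027922) and Meg3 (from 109545148) each have a second window with no match and 9 and 1 CG. Mest has a window with no match and 8 CG (from 30733256) and another 3 bases along from the printed one. In the printed windows CG dinucleotides numbered 45 for Grb10, 26 for Plagl1 and Phlda2, 17 for Mest and 13 for Meg3, against a median of 7 over all 32851 windows.

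The summed level of the maternally expressed genes was highest in the E17 libraries. The 15 maternally expressed genes summed to 410 and 429 RPM in WT GSCs, 739 and 765 at E16, 1007 in both E17 libraries, and 503 and 554 at P7. The 27 paternally expressed genes summed to 490 and 544 RPM in WT, 596 and 554 at E16, 813 and 784 at E17, and 629 and 585 at P7. Of the 42 members, 8 were too low to be tested in any comparison. Among them Snrpn and Snurf were at 0 in all 12 libraries. These genes share their 3' boundary (chromosome 7, 59982495) and overlap Snhg14. How reads that fit more than 1 gene were counted is not stated, so a count of 0 here does not show that the RNA was absent. The highest counts of the others were 14 for Nespas (listed in the GSC and fetal tables as Gnasas1), 8 for Zim1, 6 for Peg13, 5 for Peg12, 3 for Airn and 1 for Peg10.

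**Figure D1:**
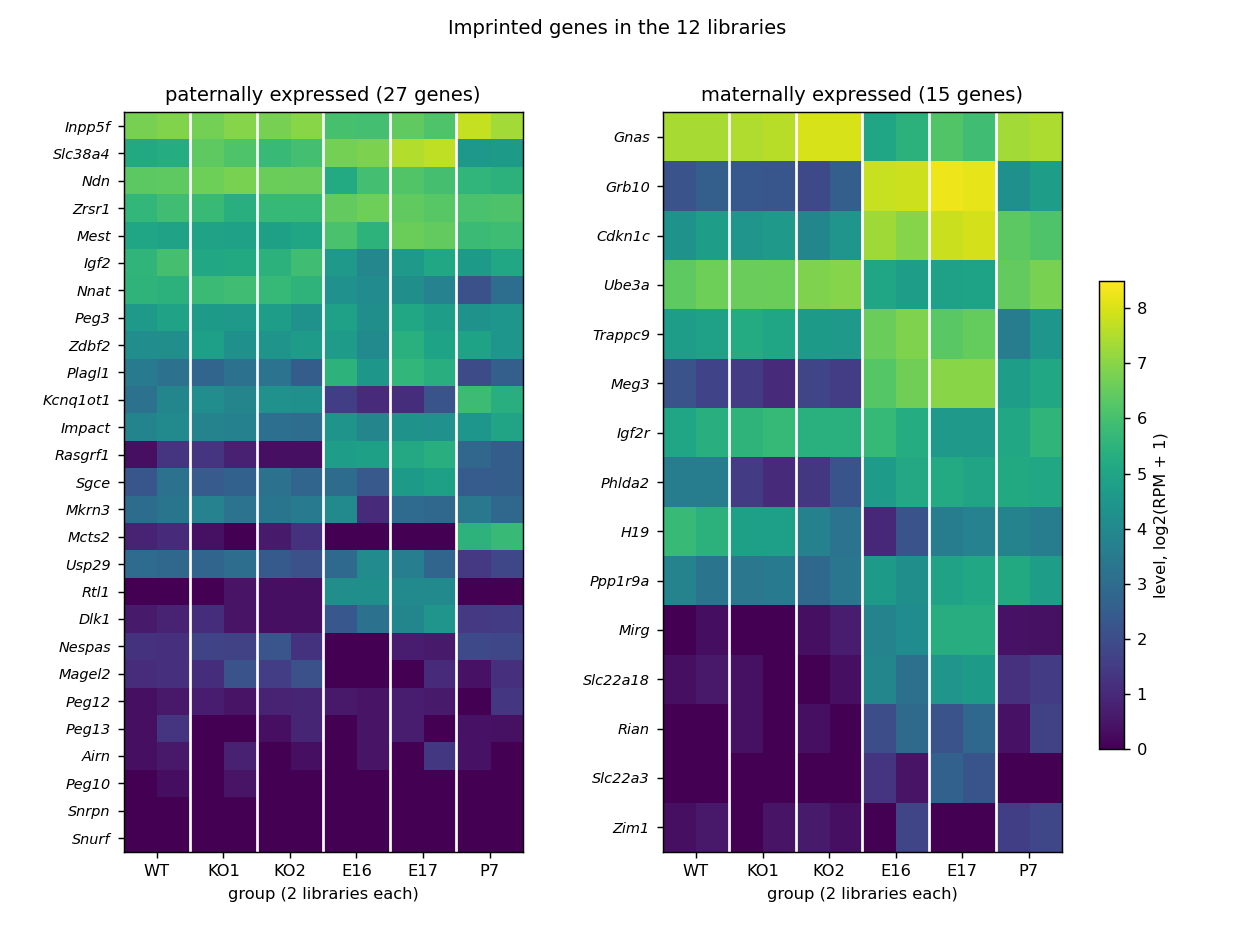
Levels of the 27 paternally expressed (left) and 15 maternally expressed (right) genes in each of the 12 libraries, as log2(RPM + 1), ordered within each panel by the mean over all libraries. Grb10, Cdkn1c, Meg3, Mirg and Slc22a18 are brightest in the 4 fetal libraries. Snrpn and Snurf, which overlap each other and Snhg14, have counts of 0 throughout.

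The first comparison asked how imprinted genes differed between the Stag3 knockout lines and WT in cultured GSCs, by setting the mean of KO1 and KO2 against WT. Of the 25 members that passed the filter on low counts, 3 fell and 2 rose, and 20 did not pass the test. H19, Phlda2 and Igf2 fell, and Slc38a4 and Gnas rose. Over all 11890 genes tested, 19.2% were called (8.64% higher and 10.6% lower), so the share of members called, 20%, was near the background. The 16 paternally expressed genes tested included 1 that rose and 1 that fell, with a median log2 fold change of -0.049, and the 9 maternally expressed ones included 1 that rose and 2 that fell, with a median of -0.18, against 0.0021 over all genes. The 20 members tested and not called ranged from -0.61 to 0.98, and the 17 not tested had at most 14 counts in any GSC library. Among these 17 were Meg3, Rian, Mirg, Dlk1 and Rtl1, all 5 members of the Dlk1-Dio3 domain.

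H19, a noncoding RNA that is also the precursor of a microRNA (chromosome 7, 142575530 to 142578146), was at 52.0 and 43.4 RPM in WT, 27.7 and 26.9 in KO1 and 12.4 and 8.32 in KO2. WT libraries were highest, the KO1 libraries intermediate and the KO2 libraries lowest, with no overlap between groups. Its log2 fold change against WT was -1.55 ± 0.17 for the knockout mean (SE, adjusted p = 2.82e-12, edgeR quasi-likelihood test with Benjamini-Hochberg adjustment), -0.85 ± 0.19 in KO1 and -2.24 ± 0.22 in KO2. Igf2, the fetal growth factor that shares control elements with H19 (chromosome 7, 142650768 to 142666816), was at 46.0 and 62.8 RPM in WT, 32.1 and 34.6 in KO1 and 43.2 and 59.1 in KO2. KO1 lay below WT while KO2 overlapped it. For Igf2 the knockout mean gave -0.45 ± 0.14 (adjusted p = 0.0159), a call that was lost with DESeq2, in a fit of all 12 libraries, and without WT replicate 2, KO1 replicate 1 or KO2 replicate 1. KO1 alone gave -0.76 ± 0.17 (adjusted p = 0.000778).

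Phlda2, which encodes a small PH domain protein known to limit placental growth (chromosome 7, 143501545 to 143503145), had 41 and 45 counts in WT, 6 and 3 in KO1 and 6 and 13 in KO2, or 11.2 RPM in both WT libraries, 1.77 and 1.05 for KO1 and 1.62 and 3.61 for KO2. Every knockout library lay below both WT libraries. The log2 fold change was -2.56 ± 0.41 (adjusted p = 5.48e-07), the largest change in size among the 5 members called. Cdkn1c and Kcnq1ot1, which belong to the same domain, were tested and not called, with means of 22.6 RPM (WT), 21.6 (KO1) and 17.3 (KO2) for Cdkn1c, which encodes the cell cycle inhibitor p57, and 11.1, 15.2 and 18.5 for the antisense RNA Kcnq1ot1. Without WT replicate 2 Kcnq1ot1 was called higher in the knockout mean, at 0.96.

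Slc38a4, an amino acid transporter (chromosome 15, 96994816 to 97055956), was at 35.1 and 37.4 RPM in WT, 83.3 and 70.2 in KO1 and 53.7 and 61.9 in KO2. All 4 knockout libraries lay above both WT libraries. It rose by 0.83 ± 0.14 on the log2 scale (adjusted p = 1.84e-06). Gnas, which encodes the stimulatory G protein alpha subunit and overlaps the antisense Nespas (chromosome 2, 174284320 to 174346744), was at 167 RPM in both WT libraries, at 179 and 193 in the KO1 pair and at 251 and 255 in the KO2 pair. The groups did not overlap, and KO2 was highest. The change was 0.33 ± 0.08 for the knockout mean (adjusted p = 0.00182; lost in a fit of all 12 libraries and with library sizes from the ERCC spike-ins).

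The lines were also set against WT one at a time, with the same WT libraries. In KO1, 1 member rose (Slc38a4, 1.03 ± 0.16) and 3 fell (H19, Igf2 and Phlda2), against 13.6% of all genes called (6.24% higher and 7.4% lower). In KO2, 3 rose (Slc38a4, Gnas and Ube3a) and 3 fell (H19, Phlda2 and Impact), against 15.6% of all genes (7.19% higher and 8.45% lower). Ube3a, an E3 ubiquitin ligase, was at 83.3 and 97.2 RPM in WT and 114 and 124 in KO2 (0.35 ± 0.12, adjusted p = 0.0319). Impact, a regulator of the GCN2 stress kinase, was at 13.3 and 15.2 RPM in WT and 7.56 and 7.21 in KO2 (-0.996 ± 0.32, adjusted p = 0.0193). The groups did not overlap for either gene, but both calls were lost with DESeq2, with the ERCC totals, in the fit of all 12 libraries and without either KO2 library, and also without WT replicate 1 and with no filter on low counts (Ube3a) or without WT replicate 2 (Impact). Slc38a4 in KO2 (0.62 ± 0.16) was lost without KO2 replicate 2.

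Between the knockout lines, 2 members differed out of 25 tested, against 0.833% of all genes (0.547% higher and 0.286% lower in KO1), the smallest background of the 8 comparisons. H19 was higher in KO1 than in KO2 by 1.39 ± 0.24 (adjusted p = 4.27e-05), and Gnas was lower by 0.45 ± 0.09 (log2 fold change -0.45, adjusted p = 0.00205). The Gnas difference was lost without KO1 replicate 1, without either KO2 library and in the fit of all 12 libraries. The other 23 members tested ranged from -0.85 to 0.77.

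Markers of germ cells, of spermatogonia and of other cell types moved with genotype as well. The 12 fibroblast and feeder markers summed to 319 and 324 RPM in WT, 298 and 301 in KO1 and 268 and 270 in KO2, with Lum at 0 in WT and KO2. Of 10 tested, 5 fell in the knockout mean, among them Col1a2 and Col3a1, and none rose. Of 9 germ cell markers 7 fell, and of 11 spermatogonial markers 7 fell and 3 rose. Sertoli markers summed to 368 and 375 RPM in WT, 390 to 442 in KO1 and 375 and 376 in KO2. Of 6 tested, Clu and Aard rose and Wt1 fell in the knockout mean, with a median log2 fold change of 0.53, and 3 rose and none fell in KO1 (median 0.75). The 5 peritubular markers summed to 5.98 and 9.53 RPM in WT, 12.2 and 12.7 for KO1 and 3.33 and 4.05 for KO2. Acta2, the only one tested, was higher in KO1 than in KO2 by 3.76 (adjusted p = 2.68e-05), as H19 was. Against WT, Acta2 fell in KO2 (log2 fold change -2.85), as H19 did. Acta2 was not called in KO1 against WT (0.91), where H19 fell. All 6 erythroid markers were at 0 in both knockout lines and 5 were at 0 in WT (0.272 and 0.249 RPM in sum), and none was tested. The part of these markers in the changes of imprinted genes was not tested.

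**Figure D2:**
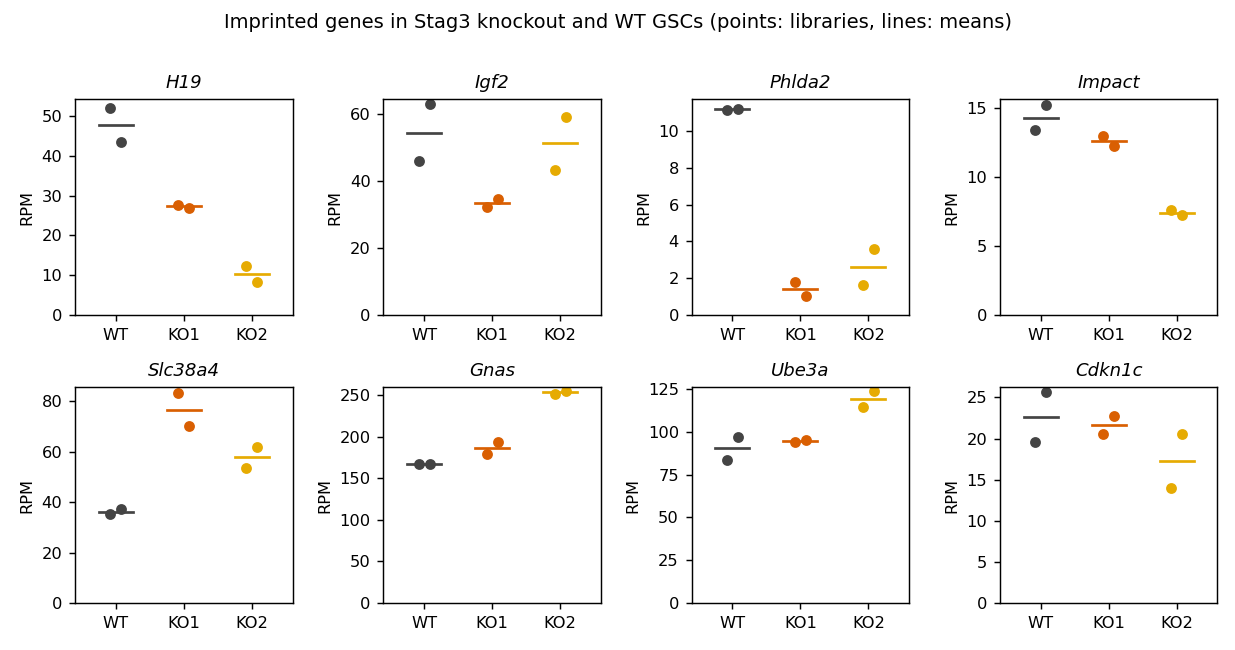
Levels in RPM of 8 imprinted genes in the 2 libraries of each GSC group (points) with the group mean (line), each axis from 0. H19 and Phlda2 lie lower and Slc38a4 higher in all 4 knockout libraries than in WT, and Igf2 of KO2 and Cdkn1c overlap WT.

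In vivo, E17 germ cells were first set against E16. Of 32 members tested, 1 rose and 1 fell, against 6.6% of all 14776 genes (1.64% higher and 4.96% lower). Sgce, which encodes epsilon-sarcoglycan, was at 6.96 and 4.22 RPM at E16 and 23.7 and 27.7 at E17, and rose by 1.90 ± 0.41 on the log2 scale (adjusted p = 0.0122). Igf2r, the receptor that carries IGF2 to lysosomes, was at 50.2 and 37.3 RPM at E16 and 22.5 in both E17 libraries (-1.28 ± 0.26, adjusted p = 0.00778). The groups did not overlap for either gene, both calls were lost without either E17 library, and Igf2r reversed with ERCC totals. The ages differed in spike-in share, with ERCC counts at 1.22% and 1.52% of the total at E16 and 0.194% and 0.231% at E17. The median log2 fold change was 0.11 over the 19 paternally expressed genes and 0.15 over the 13 maternally expressed ones, against 0.0053 over all genes. H19 was at 0.994 and 3.52 RPM at E16 and 10.98 and 12.6 at E17. The ages did not overlap, as in 58.5% of all genes tested, and H19 was not called. It was called in 5 of its 10 alternatives. These were no filter on low counts, ERCC totals, leaving out E16 replicate 2, the replicate block and the fit of all 12 libraries. Cell type markers moved between the ages too. Fibroblast markers summed to 524 and 557 RPM at E16 and 810 and 847 at E17, with 2 of 11 called higher, erythroid markers to 140 and 273 and then 91.3 and 109, with 2 of 5 called lower, and Sertoli markers to 476 and 483 and then 543 and 584, with none of 11 called. The part of these markers in the changes of Sgce and Igf2r was not tested.

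Between E17 and P7, ages of fetal prospermatogonia and of the spermatogonia of the young testis, 15 of 32 imprinted genes tested fell and 6 rose. The share called, 65.6%, was near the 67.9% of all genes called (30.2% higher and 37.8% lower), among which falls also outnumbered rises. The groups did not overlap in any of the 21 members called, nor in 99.8% of all genes called. Of 19 paternally expressed genes 9 fell and 3 rose, with a median log2 fold change of -0.43. Of 13 maternally expressed genes 6 fell and 3 rose, with a median of -1.48, and the median over all genes was -0.13.

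Grb10, Cdkn1c, Plagl1 and Slc38a4 were among those that fell. Grb10, an adaptor that dampens insulin and IGF receptor signalling (chromosome 11, 11930499 to 12037428), was at 221 and 231 RPM at E16, 314 and 287 at E17 and 18.4 and 25.7 at P7. Both P7 libraries lay far below all 4 fetal ones, and the change was -3.61 ± 0.18 (adjusted p = 7.95e-10). Cdkn1c (chromosome 7, 143458339 to 143461059) was at 156 and 122 RPM at E16, 224 and 246 at E17 and 80.9 and 70.2 at P7. It was highest at E17 in both libraries and fell by 1.48 ± 0.15 on the log2 scale (log2 fold change -1.48, adjusted p = 8.1e-07). Plagl1, a zinc finger transcription factor linked to growth arrest, was at 43.7 and 21.8 RPM at E16, 48.5 and 39.8 at E17 and 2.96 and 4.95 at P7 (-3.30 ± 0.39, adjusted p = 3.33e-06). Slc38a4 was at 106 and 112 RPM at E16, 184 and 206 at E17 and 22.0 and 23.8 at P7 (-2.93 ± 0.18, adjusted p = 4.68e-09). For both genes the P7 libraries lay below every fetal library.

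The Dlk1-Dio3 domain on chromosome 12, where the maternal copy gives noncoding RNAs and the paternal copy coding genes, was expressed at E16 and E17 and was lower at P7 on both sides. Meg3, a long noncoding RNA (109540996 to 109571729), was at 76.0 and 100.7 RPM at E16, 125 and 126 at E17 and 25.98 and 32.1 at P7 (-1.95 ± 0.21, adjusted p = 1.34e-06). Mirg, the host of a microRNA cluster (109734981 to 109749458), had 26 and 47 counts at E16, 66 and 73 at E17 and 1 in each P7 library. The ratio of E17 to P7 was 120, with an exact 95% counting interval of 32.5 to 999. Rtl1, a coding gene derived from a retrotransposon and read on the opposite strand to Meg3 and Rian, had 35 and 50 counts at E16, 27 and 30 at E17 and none at P7, and was at least 16.4-fold lower at P7 against a floor of 3 counts per library. Dlk1, a Notch-family ligand, was at 13.9 and 20.4 RPM at E17 and 1.64 and 1.85 at P7 (-3.10 ± 0.56, adjusted p = 0.000208). Rian, the host of small nucleolar RNAs, had 6 and 12 counts at E17 and 1 and 7 at P7 and did not pass the test. Meg3, Rian and Rtl1 overlap in the annotation and whether counting used strand is not stated, so their counts cannot be fully separated.

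Other genes that fell included Rasgrf1, an exchange factor for Ras, from 34.1 and 39.2 RPM at E17 to 5.92 and 4.64 at P7 (-2.63 ± 0.32, adjusted p = 4.71e-06). Trappc9, a subunit of a vesicle tethering complex that surrounds Peg13, was at 78.6 and 88.4 RPM at E17 and 11.2 and 21.3 at P7 (-2.19 ± 0.26, adjusted p = 4.27e-06). Slc22a18, a transporter between Cdkn1c and Phlda2, went from 20.8 and 23.5 RPM to 1.32 and 1.85 (-3.60 ± 0.50, adjusted p = 1.77e-05). These falls were called in every fit with 1 library left out. Sgce fell back from 23.7 and 27.7 to 4.60 and 4.64 RPM (-2.31 ± 0.41, adjusted p = 0.000156). Mest (95.9 and 86.3 RPM to 53.9 and 56.6, -0.56 ± 0.19, adjusted p = 0.0167), Nnat (17.9 and 12.6 to 3.29 and 7.42, -1.33 ± 0.45, adjusted p = 0.0159) and Usp29 (-1.87 ± 0.66, adjusted p = 0.0203) fell by smaller or less certain amounts. The Mest and Usp29 calls were lost without E17 replicate 1 or either P7 library, and the Nnat call without E17 replicate 1 or P7 replicate 1.

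The 6 genes that rose were Ube3a, Gnas, Inpp5f, Igf2r, Kcnq1ot1 and Mcts2. Ube3a was at 31.3 and 26.4 RPM at E16, 28.3 and 29.8 at E17 and 86.8 and 109.7 at P7, with both P7 libraries above all fetal ones (1.91 ± 0.21, adjusted p = 1.88e-06). Gnas was at 31.3 and 42.9 RPM at E16, 72.8 and 58.6 at E17 and 159.8 and 172 at P7 (1.497 ± 0.19, adjusted p = 7.78e-06). Inpp5f, a phosphoinositide phosphatase, was at 85.0 and 70.6 RPM at E17 and 213 and 158 at P7 (1.41 ± 0.18, adjusted p = 6.89e-06), and Igf2r at 22.5 in both E17 libraries and 33.5 and 46.1 at P7 (0.98 ± 0.26, adjusted p = 0.00339; lost without P7 replicate 2). In all 4 the P7 libraries lay above the E17 libraries, and all 4 directions reversed when the ERCC spike-in totals were used as library sizes.

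Kcnq1ot1, the antisense RNA whose start is the control region of the Cdkn1c and Phlda2 domain (chromosome 7, 143213111 to 143296547), was at 1.99 and 1.06 RPM at E16, 1.16 and 3.66 at E17 and 55.6 and 38.9 at P7. Its rise was 4.38 ± 0.45 (adjusted p = 8.58e-07) and turned to -0.26 with ERCC totals. Kcnq1, which it overlaps, had means of 1.63 RPM at E16, 3.54 at E17 and 0.329 at P7. Mcts2, a retrogene inside an intron of H13, had no counts in the 4 fetal libraries, 0 to 5 in the 6 GSC libraries, and 134 and 174 at P7. The P7 tables use another gene list. Of 31675 shared genes, 17 had at most 5 counts in the 10 other libraries and at least 100 in both P7 libraries. For Mcts2 a change of gene model and a change of RNA therefore cannot be told apart. Both P7 libraries also had a mitochondrial count of 0, against 8.82% to 10.96% of gene counts in the 10 others. The part of these table differences in the other changes at P7, against E17 or WT, was not tested.

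With the ERCC totals the median of all genes moved by -4.68 between E17 and P7. ERCC counts were 5.85% and 4.69% of the total at P7, against 0.194% and 0.231% at E17. This scaling applies to all genes alike, and the cause of the difference in spike-in share was not tested. Under that scaling all 15 falls kept their call, and 5 of the 6 rises reversed, Mcts2 being the exception. Of 11 members tested and not called, H19 was at 10.98 and 12.6 RPM at E17 and 12.8 and 10.8 at P7, Phlda2 at 35.3 and 30.4 and then 35.2 and 33.1, and Igf2 at 22.5 and 32.4 and then 23.7 and 32.1, each overlapping between ages. Cell type markers also moved. Sertoli markers summed to 543 and 584 RPM at E17 and 350 and 371 at P7, with 3 of 11 called lower, and macrophage markers to 9.82 and 13.1 and then 0.987 and 1.85. Leydig markers summed to 39.2 and 40.5 RPM at E17 and 2.78 and 8.55 at P7, peritubular markers to 105 and 116 and then 11.5 and 21.9, endothelial markers to 52.9 and 57.2 and then 17 and 18.7, and fibroblast markers to 810 and 847 and then 414 and 430. Spermatogonial markers went from 1592 and 1628 to 2592 and 2710, with 9 of 11 called higher and 2 lower. Their part in the changes of the imprinted genes was not tested.

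**Figure D3:**
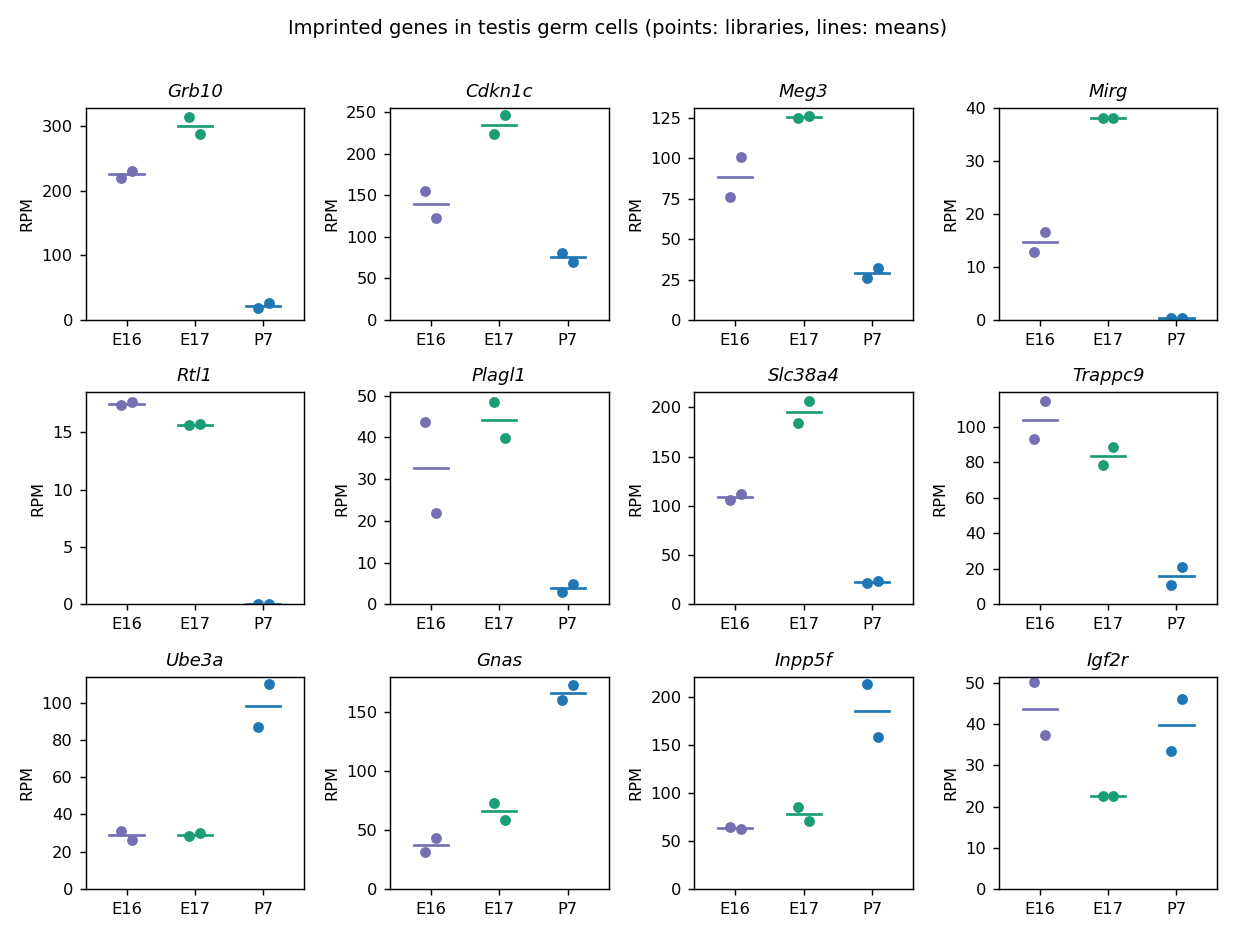
Levels in RPM of 12 imprinted genes in the 2 libraries of E16, E17 and P7 testis germ cells (points) with the group mean (line), each axis from 0. In the first 8 panels both P7 libraries lie below all fetal libraries, and in the panels of Ube3a, Gnas and Inpp5f they lie above them, an order that reverses against E17 with ERCC totals, as it does for Igf2r.

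The third question was how imprinted genes in fetal germ cells in vivo compared with those in cultured WT GSCs. Of 34 members tested, 18 were higher and 10 lower in the fetal mean of E16 and E17, against 74.2% of all 15827 genes called (41.9% higher and 32.3% lower). The 10 included Mcts2 and Magel2, both on few counts. Mcts2 had 7 counts in WT and 0 in fetal libraries, and with a floor of 3 counts per library its bound was 0.62-fold, which shows no fall. Magel2 had 9 counts in WT and 2 in fetal libraries, and its call was kept in 4 of 12 alternatives. Of 14 maternally expressed genes 10 were higher and 3 lower, with a median log2 fold change of 2.26, or 1.72 with genes at 0 in a group set to their bound. Of 20 paternally expressed genes 8 were higher and 7 lower, with a median of 0.33, and the median over all genes was 0.23. With ERCC totals, which moved the median of all genes by 2.64, all 18 higher calls were kept, and of the 10 lower calls 6 reversed and 4 were lost. ERCC counts were 3.12% and 2.90% of the total in WT, 1.22% and 1.52% at E16 and 0.194% and 0.231% at E17.

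The largest differences were in genes that GSCs barely expressed. Grb10 was at 3.54 and 4.98 RPM in WT GSCs, against 221 to 314 in the fetal libraries (5.78 ± 0.21, adjusted p = 1.81e-23). Meg3 was at 3.54 and 2.24 RPM in WT (5.05 ± 0.27, adjusted p = 9.7e-19), and Rasgrf1 at 0.272 and 1.495 against 25.8 and 27.5 at E16 (4.91 ± 0.47, adjusted p = 1.43e-11). All 4 fetal libraries lay above both WT libraries for each of the 3. Mirg had 1 count in WT over both libraries, and the ratio was 192 (exact 95% counting interval 34.1 to 7612). Slc22a18 had 3 counts in WT, with a ratio of 39.5 (13.2 to 194). Rtl1 was at 0 in WT and at least 21.2-fold higher in fetal germ cells, Rian at least 6.21-fold and Slc22a3 at least 3.42-fold, the last on 20 fetal counts and lost with DESeq2.

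Other members higher in fetal cells differed by smaller amounts. Cdkn1c was at 19.6 and 25.7 RPM in WT and higher in all 4 fetal libraries (2.85 ± 0.16, adjusted p = 1.02e-17). Slc38a4 was higher by 1.87 ± 0.15 (adjusted p = 5.71e-14), Plagl1, at 10.6 and 8.22 RPM in WT, by 1.86 ± 0.30 (adjusted p = 1.01e-06), and Trappc9, at 25.3 and 28.2 RPM, by 1.67 ± 0.19 (adjusted p = 6.72e-10). Phlda2 was at 24.8 and 34.1 RPM at E16 and 35.3 and 30.4 at E17, above the 11.2 of both WT libraries (1.35 ± 0.26, adjusted p = 2.69e-05). Ppp1r9a, a neuronal scaffold protein, was at 12.8 and 8.72 RPM in WT, 23.9 and 18.0 at E16, 28.9 and 33.0 at E17 and 34.5 and 25.96 at P7 (1.10 ± 0.27, adjusted p = 0.000421, fetal against WT). The retrogene Zrsr1, a splicing factor inside Commd1, was at 47.9 and 57.8 RPM in WT, 87.5 and 98.2 at E16, 85.5 and 77.5 at E17 and 66.4 and 69.5 at P7 (0.58 ± 0.15, adjusted p = 0.000734). Mest was at 31.6 and 28.9 RPM in WT, 65.6 and 44.4 at E16 and 95.9 and 86.3 at E17 (1.08 ± 0.17, adjusted p = 6.8e-07). Sgce was called at 0.86 ± 0.38 with overlapping libraries, and its call was lost with no filter and without WT replicate 1, E16 replicate 1 or either E17 library.

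H19 and Igf2 were both lower in fetal germ cells than in WT GSCs. H19 was at 0.994 and 3.52 RPM at E16 and 10.98 and 12.6 at E17, against 52.0 and 43.4 in WT (-3.27 ± 0.27, adjusted p = 2.68e-13; lost with ERCC totals, at -0.67). Igf2 was at 23.4 and 14.4 RPM at E16 and 22.5 and 32.4 at E17, against 46.0 and 62.8 (-1.41 ± 0.20, adjusted p = 8.8e-08; 1.23 with ERCC totals). Fetal libraries did not overlap WT for either gene. Gnas (-1.88 ± 0.12), Ube3a (-1.78 ± 0.15), Nnat (-1.57 ± 0.20), Inpp5f (-0.82 ± 0.13) and Ndn (-0.65 ± 0.15) were also lower, with no overlap, and all 5 reversed with ERCC totals. Ndn, a MAGE family protein, was at 81.4 and 83.5 RPM in WT, 35.3 and 60.9 at E16, 72.2 and 62.3 at E17 and 47.0 and 42.7 at P7. Nnat, a small membrane protein encoded within Blcap, was at 45.5 and 42.6 RPM in WT and 18.9 and 16.2 at E16.

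Somatic markers differed in the same comparison. In WT and fetal libraries respectively, Leydig markers summed to 1.91 to 2.24 and 31.7 to 40.5 RPM, peritubular markers to 5.98 to 9.53 and 85.9 to 116, endothelial markers to 5.23 to 6.26 and 34.1 to 57.2, erythroid markers to 0.249 to 0.272 and 91.3 to 273, macrophage markers to 1.09 to 1.495 and 8.45 to 13.1, and fibroblast markers to 319 to 324 and 524 to 847. Sertoli markers summed to 368 to 375 RPM in WT and 476 to 584 in fetal libraries, and of 11 tested 7 were higher and 2 lower, with a median log2 fold change of 2.71. Among them Clu was at 1.63 and 1.495 RPM in WT and 83.8 to 110 in fetal libraries. Insl3 and Amh were at 0 in the fetal libraries and in WT. The part of these cells in the levels of Grb10, Meg3, Cdkn1c and the other members was not tested.

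P7 germ cells were then set against WT GSCs. Of 34 members tested, 12 were higher and 8 lower at P7, against 31.0% of all genes called. With ERCC totals 5 of the 12 higher calls were lost and the 8 lower ones were kept. Members not called in the main fit were then called lower too, so that 7 were higher and 10 lower. The 14 maternally expressed genes had 6 higher and 2 lower, with a median of 1.16 (0.82 with genes at 0 set to their bound), and the 20 paternally expressed ones 6 higher and 6 lower, with a median of -0.085, against 0.032 over all genes. The WT libraries are shared with the fetal comparison. Meg3 (3.20 ± 0.32), Grb10 (2.22 ± 0.28), Cdkn1c (1.60 ± 0.18), Phlda2 (1.47 ± 0.29) and Ppp1r9a (1.36 ± 0.29) were higher, with adjusted p from 3.61e-10 for Meg3 to 0.000337 for Ppp1r9a. H19 (-2.14 ± 0.27, adjusted p = 1.12e-07), Igf2 (-1.09 ± 0.22, adjusted p = 0.000193) and Nnat (-3.15 ± 0.28, adjusted p = 2.51e-11) were lower. The P7 libraries did not overlap WT for any of these 8, nor in 99.04% of all genes called. Slc38a4 and Trappc9, higher than WT in fetal cells, were lower than WT at P7 (-0.79 ± 0.19, adjusted p = 0.00117, and -0.84 ± 0.24, adjusted p = 0.00725), and the Trappc9 call was lost without WT replicate 2 or P7 replicate 1. Impact was at 21.0 and 30.3 RPM at P7 and was called higher than WT at an adjusted p of 0.0492, which was lost in 9 of its 10 alternatives, including DESeq2. Markers moved in this comparison as well. Of Sertoli markers 7 of 11 were higher at P7 and 2 lower (median log2 fold change 1.72), although their sum was 350 and 371 RPM at P7 against 368 and 375 in WT. Of erythroid markers 4 of 5 were higher (12.5 and 82.5 RPM in sum at P7), of endothelial markers 2 of 5 (17 and 18.7 RPM), and of spermatogonial markers 8 of 11, with 2 lower. Of 12 fibroblast markers 2 were higher and 2 lower, and no tested Leydig, peritubular or macrophage marker was called. The part of these markers in the differences of imprinted genes was not tested.

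**Figure D4:**
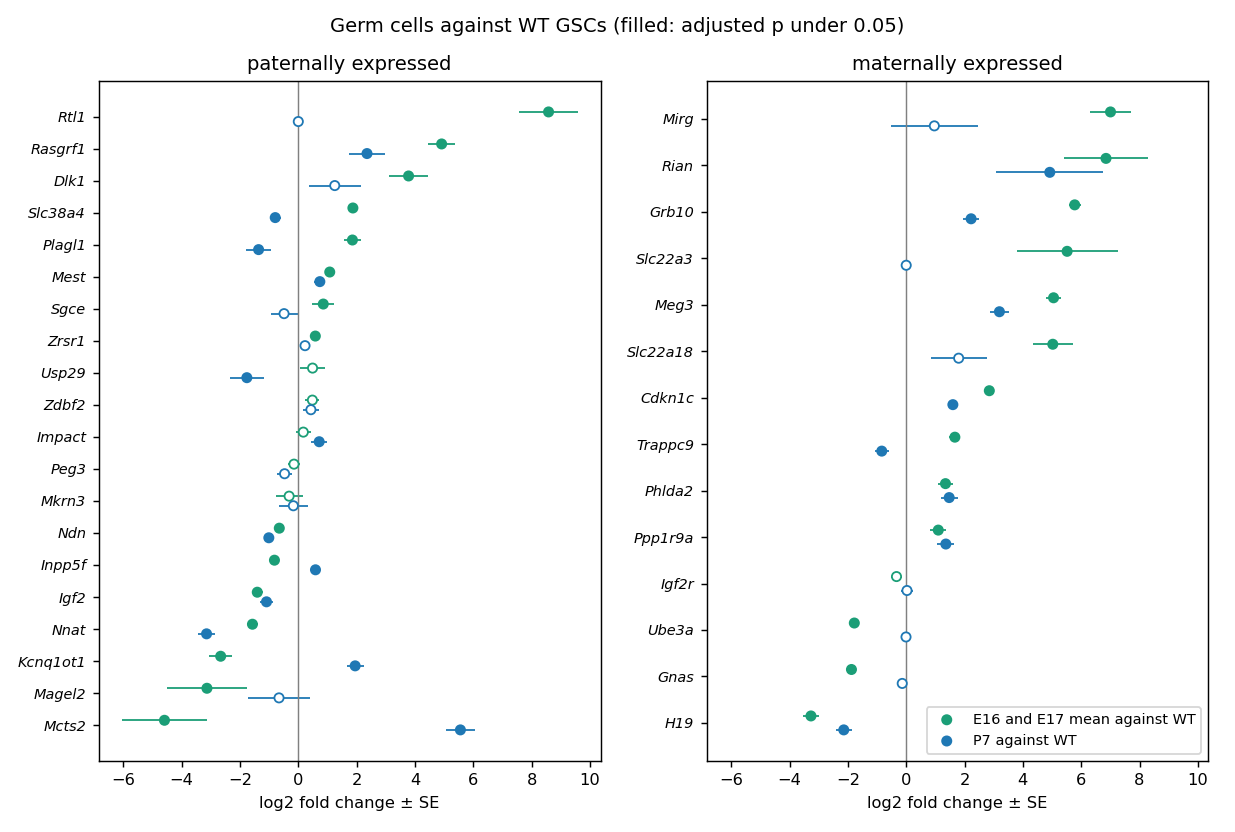
Fitted log2 fold change with its SE of fetal germ cells (mean of E16 and E17, green) and P7 germ cells (blue) against WT GSCs for the 20 paternally and 14 maternally expressed genes tested. Filled points passed an adjusted p of 0.05. Values of genes at 0 in a group, such as Rtl1, Rian and Slc22a3, depend on the prior count, and 6 of the 10 fetal falls reverse with ERCC totals. In the right panel 10 of 14 green points are filled and above 0.

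Genes that write, keep or protect imprints were read as a list of 22, of which 21 were matched. In the knockout mean 16 were tested, 2 rose and 2 fell, a share of 25% against 19.2% of all genes. Zfp445, a zinc finger protein that protects imprints, was at 18.0 and 25.9 RPM in WT, 36.5 and 38.1 in KO1 and 43.5 and 33.0 in KO2 (0.73 ± 0.17, adjusted p = 0.001), and Uhrf1, the partner of the maintenance methyltransferase DNMT1, rose by 0.29 ± 0.10. Dnmt3b, a de novo methyltransferase, was at 62.9 and 52.6 RPM in WT, 35.3 and 37.0 in KO1 and 42.1 and 40.2 in KO2 (-0.63 ± 0.14, adjusted p = 0.00031), and Ehmt2, a histone H3 lysine methyltransferase, fell by 0.58 ± 0.09 on the log2 scale. The knockout and WT libraries did not overlap for Zfp445 or Dnmt3b. Zfp57 had no more than 1 count in any library.

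In fetal germ cells against WT GSCs 14 of 19 were called (8 higher and 6 lower), a share of 73.7% that was near the 74.2% of all genes, and at P7 against WT 12 of 19 (8 higher and 4 lower), 63.2% against 31.0%. Between E16 and E17 only Dnmt3l and Dppa3 of 18 tested were called, both lower at E17 (11.1% against 6.6% of all genes), whereas with ERCC totals all 18 were called higher. Between E17 and P7, 8 of 18 rose and 5 fell (72.2% against 67.9%), while with ERCC totals 17 were called lower and none higher. Dnmt3l, the cofactor of de novo methylation in germ cells, was at 885 and 995 RPM at E16, 776 and 769 at E17 and 7.23 and 9.89 at P7, against 2.72 and 0.748 in WT GSCs (P7 against E17 -6.32 ± 0.18, adjusted p = 4.2e-12). Dnmt3a was at 464 and 437 RPM at E17 and 118 and 119 at P7, and Kdm1b, a histone demethylase needed for maternal imprints in oocytes, at 1282 and 1186 and then 161 and 123. All 3 were highest in fetal libraries. Uhrf1 went the other way, at 1.99 and 2.11 RPM at E16, 7.51 and 3.66 at E17, 79.9 and 104 at P7 and 106 and 134 in WT GSCs (P7 against E17 4.21 ± 0.32, adjusted p = 4.6e-08), and Dnmt1 was at 65.9 and 65.4 at E17 and 192 and 227 at P7. These 5 genes stand beside the imprinted genes as levels in the same libraries, and no link between them was tested.

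**Figure D5:**
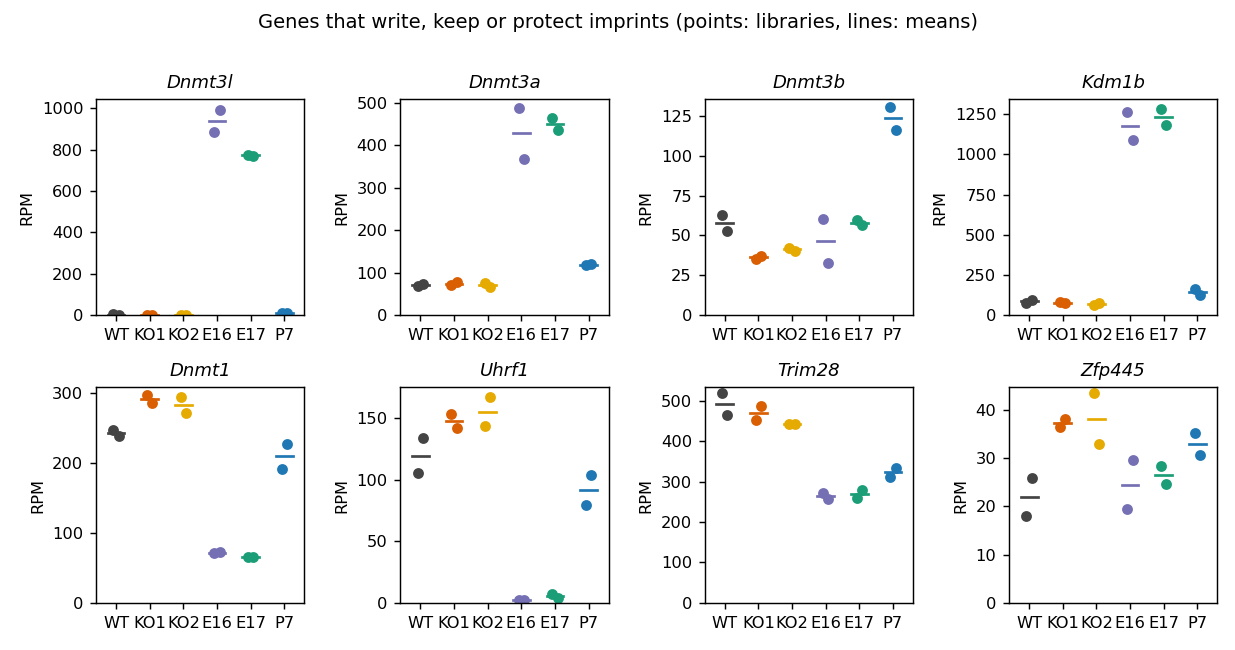
Levels in RPM of 8 genes that write, keep or protect imprints in the 2 libraries of each of the 6 groups (points) with the group mean (line), each axis from 0. Dnmt3l, Dnmt3a and Kdm1b are highest at E16 and E17, where Uhrf1 and Dnmt1 are lowest on this scale, and with ERCC totals none of the list is called higher at P7 than at E17.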

How the data were processed

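The submitters' processing notes name TopHat2 2.1.1, HTSeq 0.9.1, Salmon 1.4.0, cutadapt 1.18 and the build GRCm38.p6. What each tool did and the strandedness of counting are not stated. The authors deposited for each library a table of whole read counts per gene, used for every test, beside a score, their own reads per 1000000, which was 0.99988 to 1.00015 times the RPM computed here and was not tested. P7 tables use another gene list and hold no mitochondrial counts, unlike the other tables. Tables were joined by Entrez ID. For GSC WT the sample titles and the names of the deposited tables number the replicates in opposite ways. The titles' numbers were used, here and in the replicate block, so that WT replicate 1 is the library titled 1.

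Members, allele classes, gene lists and tests were chosen with earlier results of these data known. The quasi-likelihood test of edgeR 4.0.16, with TMM scaling, filterByExpr and no covariate, was run over all genes passing the filter in the 6 GSC libraries, the 6 in vivo libraries, or, for in vivo cells against WT, all 12, with Benjamini-Hochberg adjustment and a threshold of 0.05. "Rose", "fell", "higher" and "called" refer to that threshold, and the SE of a log2 fold change was computed from the fit's F statistic. Members shown with the value of each library were those called with at least 20 RPM in the higher group, or with 100 RPM in some group, 25 in all. Replicates of a group differed beyond sampling noise. Of all genes called, those without overlap between groups were 91.64% for the knockout mean, 99.45% for KO1 and 99.35% for KO2 against WT. Between lines they were 100%, for E17 against E16 96.62% and for P7 against E17 99.8%. Against WT they were 89.54% for the fetal mean and 99.04% for P7. Of all genes tested, called or not, those without overlap were 36.7% for the knockout mean, 53.57% for KO1 and 55.73% for KO2 against WT. They were 41.03% between lines, 58.5% for E17 against E16 and 86.74% for P7 against E17. For the fetal mean and P7 against WT they were 69.97% and 62.94%. Lack of overlap was thus common without a call. Alternatives were DESeq2 1.42.0, RLE scaling, no filter, a replicate block, ERCC totals as library sizes, a fit of all 12 libraries, an added log2 change of 1, and each library left out. Symbols, positions and promoter windows came from RefSeq. R 4.3.3 and Python 3.11.15 with pandas 2.3.3, scipy 1.17.1 and matplotlib 3.10.9 were used. The fits were also run on simulated counts with the same spread set for all genes, which checks the code and not the calls made here.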

Additional observations from a re-analysis of the deposited data

Results flagged for a closer look

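The knockout lines differed from each other in 2 imprinted genes by a direct test of KO1 against KO2. H19 was higher in KO1 by 1.3881 on the log2 scale, at 27.7 and 26.9 RPM against 12.4 and 8.32 in KO2, and this call was kept in every alternative run. Gnas had a log2 fold change of -0.448, at 179 and 193 RPM in KO1 against 251 and 255 in KO2, and this call was lost in 5 of its 11 alternatives (without KO1 replicate 1, without either KO2 library, in the fit of all 12 libraries and with the added log2 change of 1).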

How the results depend on the processing

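Of 88 member changes called, 66 kept their direction and call in every alternative other than the ERCC totals and the added log2 threshold, and 45 in every one. Depth limits members with few counts, and 8 did not pass the filter on low counts in any fit. RLE scaling lost 2 of the 88 member calls, no filter 3, and DESeq2 7 of 87, an adjusted p that it left undefined (Sgce, E17 against E16) not being counted. The fit of all 12 libraries is an alternative only within the GSC and in vivo comparisons, where it lost 5 of 40, and is itself the analysis of the comparisons with WT across them. The causes of these differences were not tested.

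Whether replicate numbers mark shared material is not stated, and for WT they are those of the titles. Deviations from the group means had correlations of -0.12 to 0.0659 between same-numbered libraries of different groups. With replicate number as a block 87 of the 88 calls were kept (Impact at P7 against WT was lost), and 5 members in place of 2 were called for E17 against E16.

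Members called in the knockout mean were 5, but 3 in the fit of all 12 libraries and 2 with the log2 threshold, which also left 2 of 4 in KO1, 2 of 6 in KO2 and 1 of 2 between lines, where the fit of all 12 libraries also left 1. For E17 against E16 the 2 members became 1 with DESeq2, 4 with no filter, 6 in the fit of all 12 libraries and 31 with ERCC totals. Over all genes the knockout mean gave 2286 calls, but 1083 with DESeq2, 1447 with ERCC totals, 1421 in the fit of all 12 libraries and 566 with the log2 threshold. For KO1 1622 became 679 with DESeq2, 858 in the fit of all 12 and 514 with the threshold, and for KO2 1860 became 864, 1008 and 564, or 1191 with ERCC totals. Between lines 99 became 35, 39 and 50. For E17 against E16 975 became 14508 with ERCC totals, 1763 in the fit of all 12 and 335 with the threshold, and for P7 against WT 4909 became 2426 with the threshold.

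Leaving out each library in turn gave, for members and for all genes, 4 to 5 and 1635 to 2172 (knockout mean), 4 to 4 and 833 to 1776 (KO1), 3 to 6 and 909 to 1868 (KO2), 1 to 2 and 39 to 46 (between lines), 0 to 8 and 174 to 3287 (E17 against E16), 18 to 21 and 7903 to 8432 (P7 against E17), 26 to 28 and 10457 to 11865 (fetal against WT), and 15 to 18 and 3167 to 3671 (P7 against WT). For E17 against E16, leaving out either E17 library left no member called.

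ERCC totals shifted the median log2 fold change of all genes by 3.02 for E17 against E16, -4.68 for P7 against E17 and 2.64 for fetal against WT. The share of called members that were higher became 100% for E17 against E16 (50% in the main analysis), 3.2% for P7 against E17 (28.6%), 100% for fetal against WT (64.3%), 41.2% for P7 against WT (60%) and 25% for the knockout mean (40%). Reversed log2 values, including members not called otherwise, were, for E17 against E16, Rian 2.69, Rtl1 2.53, Usp29 2.33, Igf2r 1.71, Phlda2 2.86, Mkrn3 2.30, Ube3a 2.69, Impact 2.85, Nnat 2.49, Inpp5f 2.996, Trappc9 2.37 and Zrsr1 2.51. For P7 against E17 they were H19 -4.52, Igf2 -4.47, Ppp1r9a -4.57, Igf2r -3.68, Kcnq1ot1 -0.26, Phlda2 -4.48, Mkrn3 -4.29, Ube3a -2.75, Impact -4.06, Gnas -3.20 and Inpp5f -3.31. For fetal against WT they were Igf2 1.23, Peg3 2.51, Igf2r 2.31, Ndn 1.96, Mkrn3 2.37, Ube3a 0.86, Nnat 1.07, Gnas 0.75 and Inpp5f 1.83.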

Other observations

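Neighbours, host genes and other genes of imprinted domains were read as a list of 40, of which 39 were matched. The list was not limited to unimprinted genes, so it is no contrast to the members. In the knockout mean 22 were tested, none rose and 4 fell, a share of 18.2% against 19.2% of all genes. Ascl2, a transcription factor of the trophoblast and a neighbour of Phlda2, was at 8.98 and 15.2 RPM in WT, 5.59 and 4.54 in KO1 and 4.86 and 3.61 in KO2 (-1.43 ± 0.33, adjusted p = 0.00055), with no overlap between WT and knockout libraries. Sfmbt2, a Polycomb-group gene, was at 101 and 111 RPM in WT, 79.7 and 74.0 in KO1 and 83.2 and 90.2 in KO2 (-0.43 ± 0.11, adjusted p = 0.0018). Gab1 and Commd1 also fell. Between E17 and P7, 5 of 32 listed genes rose and 19 fell (75% called against 67.9% of all genes). Over all genes 30.2% rose and 37.8% fell. In fetal germ cells against WT GSCs 20 of 33 were higher and 6 lower (78.8% against 74.2%), where 41.9% of all genes were higher and 32.3% lower. All 3 total shares were near those of all genes, but the directions were less so. The list had median log2 fold changes of -1.245 (P7 against E17) and 1.361 (fetal against WT), against -0.13 and 0.23 over all genes. H13, the host of Mcts2, was at 86.1 and 95.8 RPM at E17 and 45.1 and 37.1 at P7 (-0.99 ± 0.18, adjusted p = 0.00023).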
